A study of Mus musculus with 463 samples.

Results

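Collagen genes were taken as every gene symbol in the read-count tables made of Col, a number, the letter a and a number. This gave 44 of the 40824 genes in the tables. They were followed through 16 bulk RNA libraries and 447 single cells of mouse embryos, in which the study compared the dorsal and ventral parts of the developing pancreas. The bulk libraries formed 8 groups of 2: dorsal and ventral Pdx1-GFP+ progenitors at E10.5, dorsal and ventral Ngn3-GFP high and Ngn3-GFP low cells at E14.5, and dorsal and ventral Insulin-RFP (Ins1+) beta cells at E17.5. The single cells formed 12 groups: dorsal and ventral Pdx1-GFP+ cells at E9.5 and at E10.5, dorsal and ventral Pdx1-high and Pdx1-low cells at E10.5, ventral Pdx1-low cells sorted as Liv2+ or Liv2-, E10.5 liver bud cells, and 4 E15.5 liver cells marked by Pdx1-Cre and a ROSA26-tdTomato reporter. Every bulk and Pdx1-sorted group carried a fluorescent transgene, and its gate reads that reporter and not the cell's type. Liv2 was a further gate in the Liv2+ and Liv2- groups, and the liver bud cells were sorted as Liv2+. The labels give no treatment.

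Collagens are the main structural proteins of the extracellular matrix, built as triple helices of alpha chains that each gene encodes singly. Type IV collagen forms the sheet-like network of basement membranes, on which epithelia such as the pancreatic buds sit, and type XVIII collagen (Col18a1) is a heparan sulphate proteoglycan of the same layer and the source of endostatin. Types I, III and V form the banded fibrils of connective tissue, which are made chiefly by mesenchymal cells and fibroblasts. The 44 genes comprised 7 basement membrane genes (6 Col4 genes and Col18a1), 6 fibrillar genes of types I, III and V, 5 other fibril-forming genes, 9 fibril-associated genes, 6 type VI genes, 5 network and anchoring genes, 4 transmembrane genes, and Col26a1 and Col28a1.

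The start sites of the type IV genes are shown first because these genes lie in head-to-head pairs, and the members of each pair are compared below. In the GRCm38 gene annotation, Col4a1 (chr8:11198423-11312826, minus strand) and Col4a2 (chr8:11312805-11449287, plus strand) start 21 bases apart and run in opposite directions. The stretch from one start to the other, on the plus strand of chr8:11312805-11312826, is given from RefSeq (GRCm38.p6), with a match to the GC box GGGCGG in capitals.
Col4a1 and Col4a2: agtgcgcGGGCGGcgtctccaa
The second pair, Col4a6 (chrX:141165403-141474076, minus strand) and Col4a5 (chrX:141475385-141689234, plus strand), has RefSeq starts 1343 bases apart. The windows are chrX:141474077-141474326 (minus strand) before Col4a6 and chrX:141475169-141475384 (plus strand) before Col4a5. Capitals mark the reverse complement of the GC box (CCGCCC) in Col4a6 and a CCAAT box in Col4a5.
Col4a6: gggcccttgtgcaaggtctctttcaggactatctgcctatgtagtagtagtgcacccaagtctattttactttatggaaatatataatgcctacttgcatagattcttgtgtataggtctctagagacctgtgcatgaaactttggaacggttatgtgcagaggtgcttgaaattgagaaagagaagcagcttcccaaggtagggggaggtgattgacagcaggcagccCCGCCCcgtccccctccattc
Col4a5: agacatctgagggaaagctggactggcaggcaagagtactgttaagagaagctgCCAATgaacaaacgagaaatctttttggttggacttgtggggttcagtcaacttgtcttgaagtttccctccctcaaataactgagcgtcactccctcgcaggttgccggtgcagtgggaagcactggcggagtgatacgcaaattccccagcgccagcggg
Col3a1 (chr1:45311538-45349706, plus strand), used below with Col1a1 to pick out collagen-rich cells, is shown as a fibrillar gene for contrast. Its window is chr1:45311288-45311537, with a TATAAA match in capitals.
Col3a1: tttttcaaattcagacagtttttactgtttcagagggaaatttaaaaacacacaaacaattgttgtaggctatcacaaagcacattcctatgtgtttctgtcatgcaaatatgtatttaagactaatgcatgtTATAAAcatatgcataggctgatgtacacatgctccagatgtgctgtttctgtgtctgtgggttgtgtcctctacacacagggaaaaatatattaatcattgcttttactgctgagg
RefSeq start windows (250 bases before to 50 after a start) were given for 35 of the 44 genes, in 38 windows. Counting both strands, CCAAT or ATTGG was in 13 of these 38 windows and in 37.4% of all 32851 gene windows. GGGCGG or CCGCCC was in 23 of 38 and 35.7% of all, and TATAAA or TTTATA in 5 of 38 and 13.6% of all. GC box and CCAAT box matches can share letters, and each motif was counted separately. A match describes these letters and not a bound site.

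Depth ran from 8779418 to 24551520 reads on genes in the bulk libraries. In the single cells it ran from 201191 to 1738015, with a median of 1064163. No replicates held identical values, and each bulk replicate pair differed by more than sampling noise. After a filter on low counts, 17690 genes were tested in bulk, 41 of the collagens among them. Col10a1, Col4a3 and Col4a4 did not pass, and their highest levels in bulk were 0.0602, 0.474 and 0.642 counts per 1000000 reads on genes (CPM, with library totals scaled by edgeR's TMM method in bulk and sets of cells). For single cells the reads of cells in one numbered set of a group were summed, giving 37 sets of 3 or more cells, 17433 tested genes and 34 collagens. The labels do not say whether libraries or sets came from separate litters, so p-values measure the spread between these samples, which may be technical. A call below means a Benjamini-Hochberg adjusted p under 0.05 in edgeR's quasi-likelihood test over all tested genes.

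Per length, Col4a1 led the E10.5 progenitors on both sides. In RPKM, which is CPM divided by the gene length in kilobases, Col4a1 had the highest mean of the 44 genes in both E10.5 groups, 67.6 ± 0.25 in dorsal and 129 ± 6.1 in ventral libraries (SD, n = 2). Col18a1 (39.4 RPKM), Col2a1 (37.0) and Col4a2 (31.9) came next on the dorsal side. On the ventral side Col2a1 (78.9 ± 3.5), Col4a2 (59.3 ± 1.8) and Col18a1 (57.1 ± 0.47) did, and the last 2 did not differ beyond their spread. Col1a1, the alpha 1 chain of type I collagen, averaged 1.44 RPKM in dorsal and 46.0 ± 16 RPKM in ventral progenitors. The order changed in later sorts. Col18a1 led the Ngn3-low cells at 166 and 180 RPKM (dorsal, ventral), Col9a2 led the Ngn3-high cells at 108 and 122 RPKM, and Col3a1 led the E17.5 beta cells at 91.0 and 129 RPKM. The neighbours in that order were within the spread of the duplicates in several groups: at E17.5 Col3a1 (SD 54 and 76 RPKM), Col1a1 (68.7 and 105 RPKM) and Col1a2 (66.5 and 92.3 RPKM) did not differ beyond it.

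**Figure D1:**
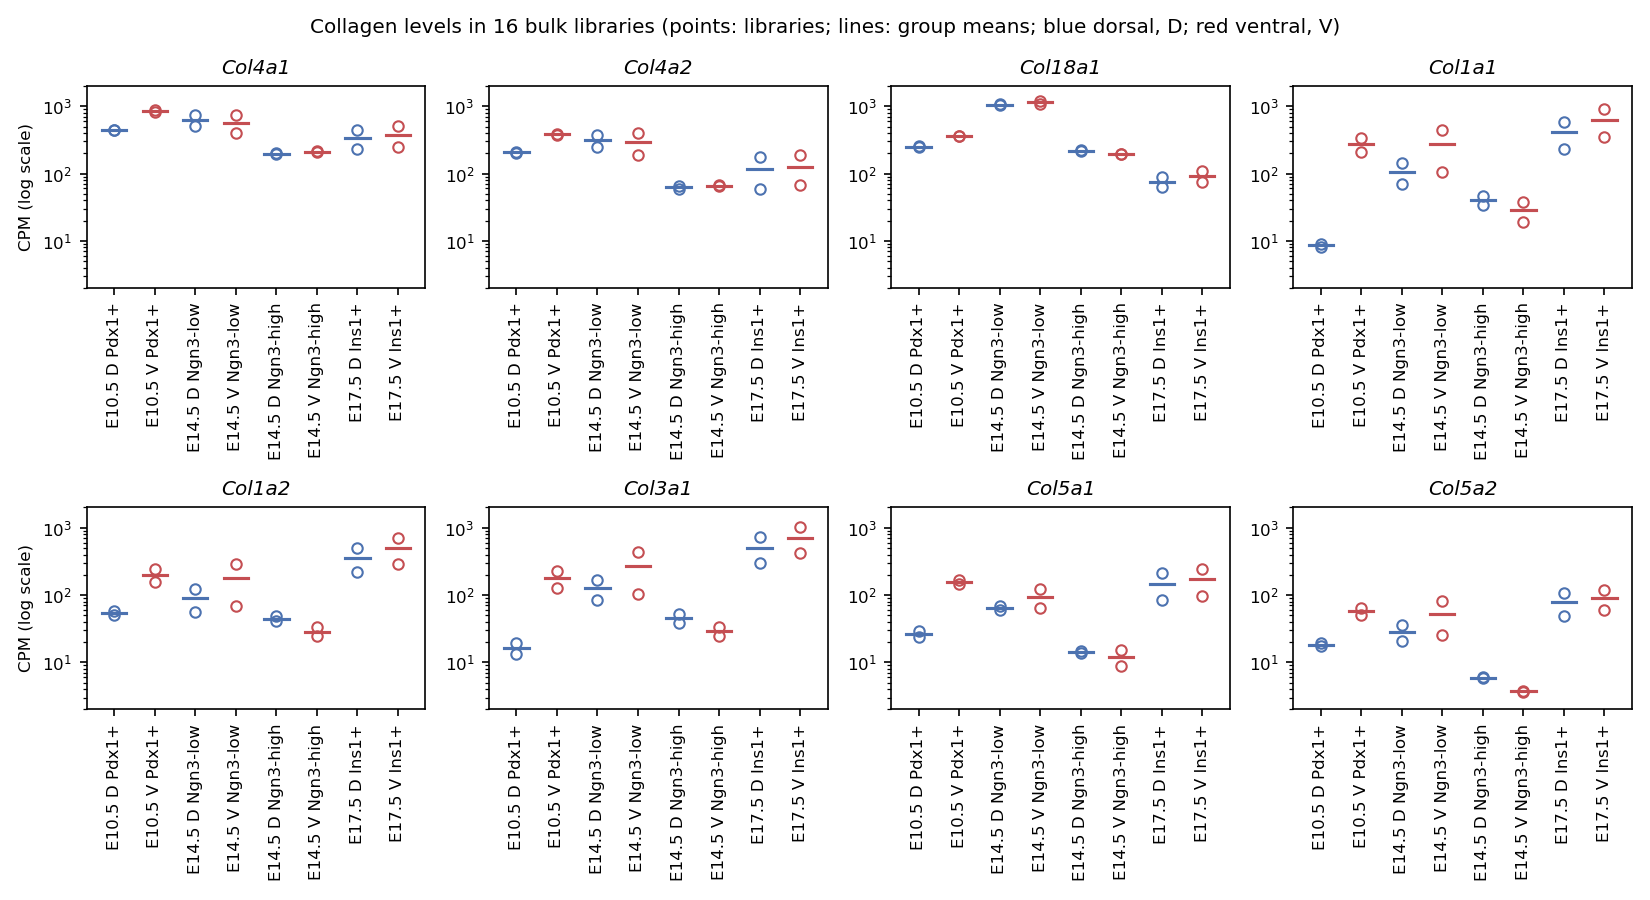
Levels of the 8 collagens named in every comparison in each of the 16 bulk libraries (CPM, log scale). Points are libraries, blue dorsal and red ventral, and lines are group means. Col4a1, Col4a2 and Col18a1 stay above 50 CPM in every library, while Col1a1 and Col3a1 sit under 20 CPM in both dorsal E10.5 libraries and above 200 CPM in all 4 E17.5 libraries.

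The first comparison asked how ventral and dorsal progenitors differed at E10.5. In the ventral libraries 3 of 5 tested basement membrane genes and 3 of 6 fibrillar genes were called higher and none lower, while 2 of 9 fibril-associated genes were called lower and none higher. Of 41 collagens tested, 8 were called higher and 5 lower in ventral cells. Over all genes 10.2% were called higher and 14.49% lower (24.7% in all). DESeq2 called 21 of the collagens. The collagens' median log2 difference was 0.28, beside -0.031 over all genes tested.

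Among the basement membrane genes, Col4a1 read 446.1 and 448.4 CPM in the dorsal libraries and 881.1 and 824.5 CPM in the ventral ones. Its partner in the most common type IV molecule, Col4a2, read 208.2 and 203.4 CPM dorsally and 390.6 and 374.0 CPM ventrally. Both ventral libraries were above both dorsal ones for each gene, with no overlap. The fitted log2 differences were 0.93 ± 0.42 (SE) for Col4a1 and 0.89 ± 0.58 for Col4a2, and neither passed (adjusted p = 0.16 and 0.34). The fit shares its spread with the E14.5 and E17.5 libraries, and duplicates of these genes lie far apart in the Ngn3-low and E17.5 groups, though close in the Ngn3-high ones. With only the 4 E10.5 libraries in the fit, a setting chosen after seeing the data, both were called (adjusted p = 6.09e-05 and 5.52e-05).

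Col18a1 read 253.1 and 246.9 CPM dorsally and 363.9 and 359.6 CPM ventrally, a log2 difference of 0.53 ± 0.15 (adjusted p = 0.018). The groups did not overlap, but the call ended when any one of the 4 E10.5 libraries was left out (adjusted p up to 0.115). The rarer pair of type IV genes moved with it. Col4a5 was at 44.4 and 46.8 CPM dorsally against 85.2 and 80.2 CPM ventrally (log2 difference 0.86 ± 0.13, adjusted p = 7.7e-05). Col4a6 was at 6.32 and 7.03 CPM against 27.3 and 20.03 CPM (1.82 ± 0.24, adjusted p = 2.8e-05). Both X-linked neighbours, whose windows are printed above, were higher in both ventral libraries, and both calls held with each library left out in turn.

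The fibrillar genes differed more. Col1a1 read 9.00 and 8.13 CPM in the dorsal libraries and 338.7 and 207.0 CPM in the ventral ones, a log2 difference of 4.99 ± 1.03 (adjusted p = 0.0078). Col3a1, the chain of type III collagen, read 19.5 and 13.2 CPM dorsally and 224.5 and 128.0 CPM ventrally (3.43 ± 0.91, adjusted p = 0.026). Col5a1, which helps start type I fibrils, read 29.3 and 23.5 CPM against 170.1 and 145.8 CPM (2.58 ± 0.61, adjusted p = 0.015). All 3 genes were high in both ventral libraries and highest in ventral library 1.

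Col1a2, which encodes the second chain of type I collagen, departed from Col1a1 on the dorsal side. It read 57.9 and 51.2 CPM there, several times the Col1a1 level, and 244.4 and 157.3 CPM ventrally. Its log2 difference was 1.88 ± 0.78 and was not called (adjusted p = 0.13). Col5a2 was at 19.4 and 17.4 CPM against 63.9 and 50.8 CPM (1.64 ± 0.65, adjusted p = 0.11). Calls on the fibrillar genes rested on few libraries: that of Col1a1 ended without dorsal library 1 or 2 (adjusted p up to 0.0716), and those of Col3a1 and Col5a1 without dorsal 1, dorsal 2 or ventral 1 (up to 0.162 and 0.111). With only the E10.5 libraries, 25 collagens were called, beside 28.8% of the 15335 genes tested, and Col1a2 (adjusted p = 0.00117) and Col5a2 (3.29e-05) were among them.

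Outside these 2 classes, Col2a1, the fibril-forming collagen of cartilage, was at 187.9 and 189.3 CPM dorsally and 390.1 and 415.3 CPM ventrally (1.09 ± 0.09, adjusted p = 1.6e-07). Other collagens of cartilage did not share 1 direction. Col9a3 read 57.5 and 54.0 CPM dorsally and 11.2 and 10.1 CPM ventrally (-2.39 ± 0.13, adjusted p = 1.5e-09). Col9a2 read 33.3 and 31.7 CPM against 8.72 and 8.56 CPM (-1.91 ± 0.12, adjusted p = 3.6e-09). Col11a2 was lower too, at 11.7 against 25.4 CPM in the group means, with no overlap. Col11a1, named with Col9a1 after its values were seen, read 9.11 and 7.63 CPM dorsally and 16.7 and 15.3 CPM ventrally. Its difference was not called (0.94 ± 0.46, adjusted p = 0.18), but it was with only the E10.5 libraries (0.98, adjusted p = 0.0026) and without the E17.5 ones (0.97, adjusted p = 0.013), settings chosen after seeing the data. Col9a1 was not called (8.79 against 11.7 CPM, adjusted p = 0.10). The epidermal anchoring collagen Col17a1 (2.64 against 0.596 CPM) and Col6a5 (2.52 against 0.433 CPM) were lower ventrally at low level, and the neuronal transmembrane collagen Col25a1 (2.32 against 6.95 CPM) was higher. The Col17a1 call ended without dorsal library 2 or ventral library 2 (adjusted p up to 0.125).

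Beside the fibrillar collagens, markers of mesenchymal, cardiac, endothelial and immune cells were higher in the ventral libraries. Of 14 mesenchyme markers, 7 were called higher in ventral cells and none lower, and their summed level was 1214 and 1284 CPM dorsally and 2570 and 2673 CPM ventrally. All 8 cardiac markers were higher, summing to 31.2 and 11.0 CPM dorsally and 2116 and 1221 CPM ventrally. Endothelial markers summed to 21.1 and 12.9 CPM against 112.9 and 86.5 CPM (2 of 10 called higher), and immune markers to 34.8 and 22.6 CPM against 234.6 and 73.0 CPM (3 of 8). The sum of 10 epithelial markers, 2311 to 2546 CPM, differed little, but hepatoblast markers summed to 299.7 and 366.6 CPM dorsally against 1809 to 2233 CPM ventrally, and early endocrine markers to 3381 to 3507 against 46.0 to 85.2 CPM. The part of these cells in the collagen difference was not tested, and in bulk RNA fewer cells of a type and less RNA per cell cannot be told apart.

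**Figure D2:**
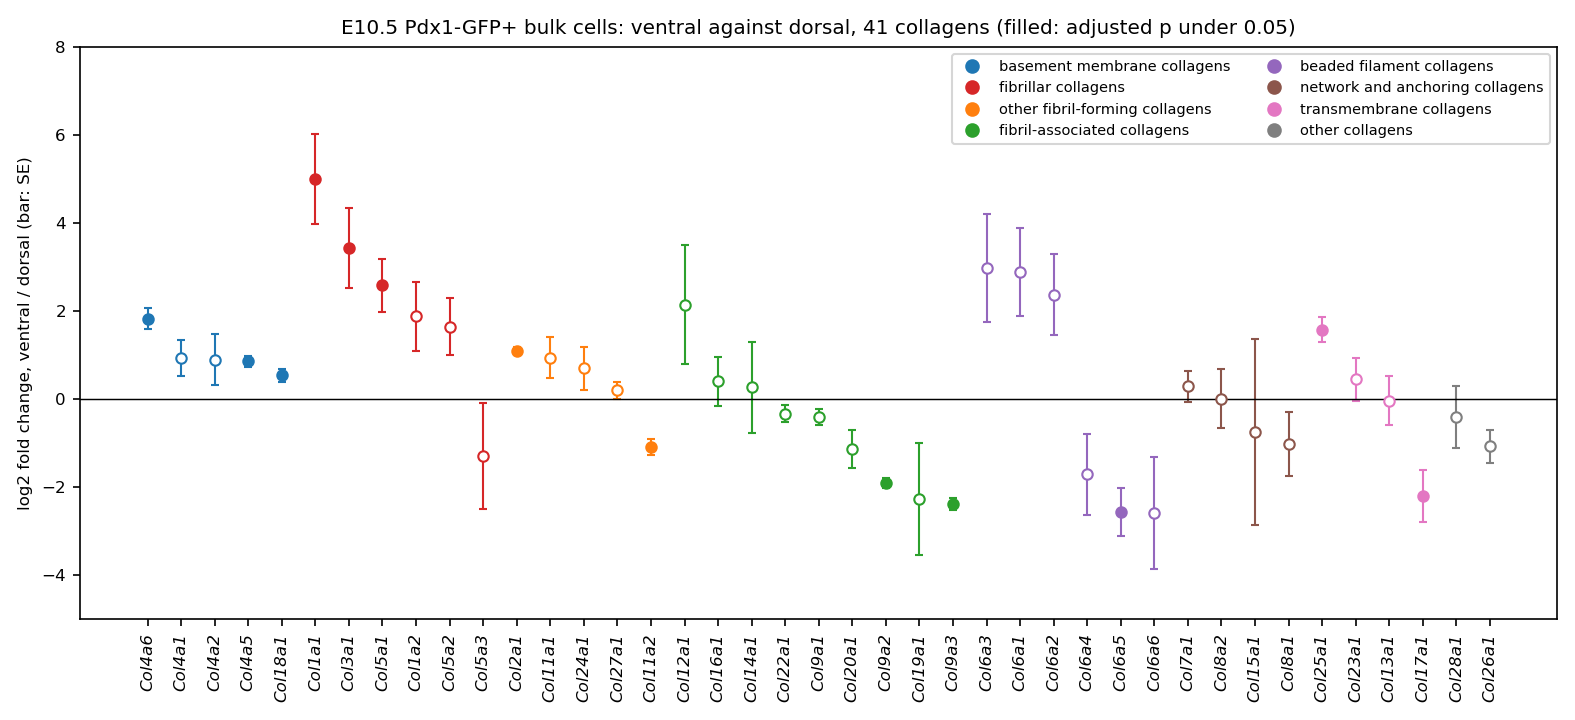
Log2 fold change, ventral over dorsal, of the 41 tested collagens in the E10.5 bulk libraries, with bars of 1 SE and colours for the classes; filled points are called at an adjusted p under 0.05. Of the called genes, Col1a1, Col3a1 and Col5a1 lie highest and Col6a5, Col9a3 and Col17a1 lowest.

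Genes that make and hold collagen were counted from fixed lists, beside 10.2% of all genes called higher ventrally and 14.49% called lower. Of 15 basement membrane partners (laminins, nidogens, perlecan and others), 7 were higher ventrally and none lower, with a median log2 difference of 0.96. The laminin chains Lamc1 (432 against 292 CPM, 0.56), Lama5 (411 against 267 CPM, 0.62) and Lamb1 (441 against 277 CPM, 0.67) were the most abundant of them. Of 19 folding genes, 5 were higher and 3 lower, the latter near the share of all genes. The collagen chaperone Serpinh1 rose from 485 to 622 CPM (0.36 ± 0.11), while the cyclophilin Ppib was lower (214 against 283 CPM). Of 12 processing genes, 3 were higher and 1 lower: the crosslinking oxidase Loxl2 read 111 against 31.8 CPM (1.81 ± 0.36), and the procollagen protease Bmp1 123 against 169 CPM. Among 7 collagen receptors only Ddr1 was called, lower in ventral cells (109 against 165 CPM). Among 10 breakdown genes only the membrane protease Mmp14 was, higher (189 against 114 CPM). Counts of 1 in 7 lower and 1 in 10 higher are near the shares of all genes.

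After E10.5 the 2 sides were compared in 3 more sorts, and the tests called no collagen in any of them. In Ngn3-high cells edgeR called 0 of 41 (0.537% of all genes called), with 4 at an unadjusted p under 0.05 and 0 called by DESeq2. In Ngn3-low cells it called 0 (0.017% of all genes), with 6 at an unadjusted p under 0.05 and 1 called by DESeq2. In E17.5 beta cells it called 0 (0.0283% of all genes), with 2 at an unadjusted p under 0.05 and 0 called by DESeq2. Within Ngn3-high cells Col4a1 spanned 193.2 to 203.6 CPM dorsally and 207.3 to 216.5 CPM ventrally. The duplicates of later groups often lay farther apart than the sides did, as for Col1a1 in Ngn3-low cells (144.0 and 70.1 CPM dorsally, 442.6 and 105.3 CPM ventrally).

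The side difference at E10.5 was then tested against the mean side difference of the 3 later sorts. It was larger for 5 collagens and lower for 6 of 41, against 6.79% and 11.1% of all genes (17.9% in all). The higher ones were Col1a1 (4.50 ± 1.11 on the log2 scale, adjusted p = 0.024), Col5a1 (2.41, adjusted p = 0.045), Col4a6 (1.82), Col2a1 (0.86) and Col4a5 (0.85). The lower ones were Col6a5 (-2.87), Col9a3 (-2.53), Col17a1 (-2.19), Col9a2 (-2.08), Col11a2 (-1.20) and Col9a1 (-0.69, adjusted p = 0.047). With 1 of the 16 libraries left out in turn, the call of Col5a1 ended in 12 fits (adjusted p up to 0.195), that of Col9a1 in 11 (up to 0.172, and with DESeq2 and RLE scaling), that of Col17a1 in 8 (up to 0.215, and with DESeq2) and that of Col1a1 in 3 (without dorsal 1, dorsal 2 or ventral 1 at E10.5, up to 0.13). The other 7 calls held in all 16 fits. Col3a1 (3.11, adjusted p = 0.071), Col18a1 (0.46, adjusted p = 0.089) and Col4a1 (0.89, adjusted p = 0.28) did not pass.

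Most collagens differed between the 2 Ngn3 gates at E14.5. Ngn3-high cells, the endocrine progenitors, held less of every basement membrane gene tested. Over both sides 11 collagens were higher and 23 lower in Ngn3-high than in Ngn3-low cells, beside 33.7% and 36.9% of all genes (70.6% in all), and the median log2 difference was -1.44, beside -0.0085 over all genes. All 5 basement membrane genes and 5 of 6 fibrillar genes were among the lower ones, and the call of Col1a2 ended in 4 of 8 fits with a library left out (adjusted p up to 0.0688).

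Col18a1 was at 215.3, 221.4, 195.6 and 194.3 CPM in the 4 Ngn3-high libraries and at 1026.2, 1076.5, 1199.5 and 1085.8 CPM in the 4 Ngn3-low ones, a log2 difference of -2.41 ± 0.11 (adjusted p = 4.2e-11). Col2a1 went from 699 CPM in Ngn3-low to 104 CPM in Ngn3-high cells in the means (-2.74 ± 0.07, adjusted p = 2.4e-15). The libraries of the gates did not overlap for either gene, and the replicates were close. Col27a1, another fibril-forming chain, was at 63.7 against 420 CPM (-2.72), and Col4a5 at 35.0 against 128 CPM (-1.87).

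Col4a1 was less even. It read 203.6, 193.2, 207.3 and 216.5 CPM in Ngn3-high cells and 729.6, 502.6, 729.4 and 396.5 CPM in Ngn3-low cells (-1.52 ± 0.30, adjusted p = 0.0015). Col4a2 followed it at 66.2, 59.9, 66.6 and 65.0 CPM against 380.3, 250.3, 394.2 and 188.4 CPM (-2.23 ± 0.43, adjusted p = 0.0014). In the Ngn3-low cells library 1 was above library 2 on both sides. So it was for Col15a1, a basement membrane zone relative of Col18a1 found around vessels and muscle, at 173.0 and 79.5 CPM dorsally and 169.8 and 49.4 CPM ventrally. In Ngn3-high cells Col15a1 read 4.70 to 7.64 CPM (-4.26 ± 0.56, adjusted p = 0.00012).

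The 10 endothelial markers showed the same order between the duplicates. They summed to 858.0 and 433.9 CPM in dorsal and 949.6 and 297.5 CPM in ventral Ngn3-low libraries, and to 15.8 to 25.6 CPM in Ngn3-high ones, and all 10 were called lower in Ngn3-high cells. Immune markers (132 to 180.2 against 11.1 to 18.1 CPM) and mesenchyme markers (1174 to 1426 against 324.7 to 421.6 CPM) were lower too, with 7 of 8 and 8 of 14 called. The part of these cells in the levels of Col4a1, Col4a2 and Col15a1 was not tested. Col18a1, Col4a5, Col2a1 and Col27a1 did not follow that order: for Col4a5 the Ngn3-low libraries read 124.3, 131.7, 125.7 and 129.5 CPM.

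Some collagens ran against the class. Col9a2 was higher in Ngn3-high cells at 315.1, 318.9, 355.4 and 356.1 CPM, against 132.6, 159.6, 161.0 and 173.7 CPM (1.10 ± 0.06, adjusted p = 6.1e-11). Col11a2 was at 572 against 359 CPM (0.68), and Col6a6 at 30.3 against 2.54 CPM (3.62 ± 0.33). Col28a1, Col17a1, Col26a1, Col22a1, Col13a1, Col25a1, Col6a5 and Col20a1 were higher at mean levels of 1.44 to 13.5 CPM. Every Ngn3-high library was above every Ngn3-low one for Col9a2, Col11a2 and Col6a6.

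Of the partner lists, 14 of 15 basement membrane partners were lower in Ngn3-high cells and none higher (median -2.15). Beside them, 36.9% of all genes were called lower and 33.7% higher. Lamc1, the laminin gamma 1 chain, read 380 against 1673 CPM (-2.14), and Lamb1 was lower by 2.34 on the log2 scale. Of 12 processing genes 8 were lower and 1 higher: the matrix glycoprotein Sparc read 126 against 739 CPM, while Bmp1 was higher at 342 against 97.0 CPM. Serpinh1 read 243 against 638 CPM (-1.39). Of 19 folding genes, 6 were higher and 7 lower, shares near those of all genes. Mia3, which loads procollagen into transport vesicles, was higher by 1.10.

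Between E14.5 Ngn3-high cells and E17.5 Ins1+ beta cells, where stage and sort change together, the fibrillar class rose. Of 41 collagens 23 were higher and 11 lower at E17.5 (32% and 29.9% of all genes, 61.8% in all), with a median of 1.21 beside 0.011 over all genes. All 6 fibrillar genes were higher, while 5 of 9 fibril-associated genes were higher and 4 lower, and 1 of 5 other fibril-forming genes was higher and 2 lower. Col1a1 read 19.3 to 46.3 CPM in the 4 Ngn3-high libraries and 583.9, 231.2, 898.1 and 352.6 CPM at E17.5 (3.91 ± 0.63, adjusted p = 0.0006). Col3a1 read 24.4 to 52.0 CPM and then 717.6, 295.5, 1014.7 and 416.8 CPM (4.07 ± 0.61, adjusted p = 0.0004). All E17.5 libraries were above all Ngn3-high ones, and library 1 was above library 2 on both sides.

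The type VI genes, whose product forms beaded filaments beside cells, rose too. Col6a1 went from 4.25 to 129 CPM (5.01 ± 0.55), Col6a2 from 7.07 to 158 CPM (4.52) and Col6a3 from 7.94 to 139 CPM (4.24). Col5a3 went from 0.386 to 22.8 CPM (5.81 ± 0.43), and Col12a1 and Col14a1, which coat fibrils, rose by 4.59 and 4.51 on the log2 scale. The marker sums moved alongside: 11 of 14 mesenchyme markers were higher and 1 lower, all 8 immune markers were higher and 9 of 10 endothelial markers were higher. The mesenchyme sums overlapped, at 324.7 to 421.6 CPM in Ngn3-high and 366.3 to 830.8 CPM in E17.5 libraries. The immune sums (11.1 to 18.1 against 95.4 to 285.5 CPM) and endothelial sums (15.8 to 25.6 against 44.3 to 120.5 CPM) did not. In each of these sums at E17.5 library 1 was above library 2 on both sides, as for the fibrillar genes. Their part in the fibrillar rise was not tested.

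Basement membrane genes split at this step. Col18a1 was lower at 88.2, 64.0, 109.4 and 73.9 CPM (-1.30 ± 0.11, adjusted p = 1.1e-07), and Col4a5 (10.4 against 35.0 CPM) and Col4a6 (1.88 against 3.07 CPM) fell too. Col4a1 was higher at 443.2, 232.6, 503.5 and 248.3 CPM (0.80 ± 0.30, adjusted p = 0.043), a call that ended in 6 of 8 fits with a library left out. Col4a2 at 122 against 64.4 CPM did not pass (0.92 ± 0.43, adjusted p = 0.092). Col2a1 read 1.16 to 1.77 CPM at E17.5 (-6.19 ± 0.11, adjusted p = 7.1e-16), below every Ngn3-high library. Col9a1 (-4.38), Col9a3 (-3.64), Col22a1 (-3.48) and Col11a2 (-3.29) were also lower, Col11a1 was higher (1.22 to 3.34 CPM, 1.53, adjusted p = 0.0064), while Col9a2 stayed at 126.5 to 145.3 CPM (-1.31 ± 0.06).

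From E10.5 Pdx1+ progenitors to E14.5 Ngn3-low cells, 19 collagens were higher and 6 lower (33% and 34.8% of all genes, 67.8% in all; median 1.05 beside -0.016 over all genes). Col18a1 rose by 1.87 ± 0.11 on the log2 scale (adjusted p = 1.3e-09). The largest rise was in Col15a1, from 0.499 to 1.31 CPM at E10.5 to 49.4 to 173.0 CPM (6.93 ± 0.77), beside all 10 endothelial markers called higher. Col11a2 (18.5 to 359 CPM, 4.36), Col9a1 (10.3 to 132 CPM, 3.69), Col9a2 (20.6 to 157 CPM, 3.22) and Col9a3 (33.2 to 191 CPM, 2.97) rose together, and 7 of 9 fibril-associated genes were called higher. Col4a1 (-0.07 ± 0.29, adjusted p = 0.85) and Col4a2 (0.11 ± 0.41, adjusted p = 0.83) were not called. The contrast averages the sides on a log scale. Col1a1 (1.82 ± 0.64, adjusted p = 0.032) was called, yet the ventral E10.5 libraries lay above the dorsal Ngn3-low ones, and its call and that of Col3a1 each ended in 5 of 8 fits with a library left out. Col22a1 (22.1 to 2.33 CPM) and Col26a1 (31.9 to 4.37 CPM) were the most lowered.

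The single cells showed which collagens epithelial cells held one by one. Cells were called epithelial at 10 CPM or more of Epcam, the epithelial adhesion molecule, unless they had 10 CPM or more of both Col1a1 and Col3a1, in which case they were called collagen-rich. There were 428 epithelial, 8 collagen-rich and 11 remaining cells, the last being 6 liver bud cells, all 4 E15.5 liver cells and 1 dorsal Pdx1-low cell.

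In epithelial cells Col4a1 was at 10 CPM or more in 96.0% of cells (411 of 428), Col18a1 in 94.2% and Col4a2 in 87.6%. Col2a1 reached that level in 71.7% and Col27a1 in 60.1%. Col1a1 reached it in 4 cells (0.93%) and Col3a1 in 6 cells (1.40%). Cells with both genes at that level, some of them with Epcam, are outside this class by its rule, which lowers these shares. Over all 447 cells, 12 reached it for Col1a1 and 14 for Col3a1. Fibrillar genes were not all alike: Col1a2 reached 10 CPM in 43.0% of epithelial cells and Col5a1 in 27.8%. When every cell was thinned to 200000 reads, the Col4a1 share was 95.8%.

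The 8 collagen-rich cells made up 1.79% of 447 cells (exact Clopper-Pearson 95% interval 0.776 to 3.50%, counting error only). Of these, 6 were among 59 ventral Pdx1+ cells (10.2%, 3.82 to 20.8%), 5 in set 2 and 1 in set 3, and 2 were among 39 ventral Pdx1-low cells (5.13%, 0.627 to 17.3%), both in set 6. None was among 27 dorsal Pdx1+ cells (upper limit of the share 11.1%, from 3 counts) or among 40 dorsal Pdx1-low cells (upper limit 7.50%). The other groups had none either. In no cell was the lower of the 2 genes at 5 to 10 CPM, 407 cells had no Col1a1 read, and 415 had no Col3a1 read. But 4 cells had 10 CPM or more of Col1a1 only and 6 of Col3a1 only, at up to 72.3 and 557 CPM. A threshold of 50 CPM for both genes picked 6 cells. By the lower of the 2 genes, the nearest cell inside had 277.9 CPM of Col1a1 and 26.1 CPM of Col3a1, and the nearest outside 3.45 and 5.75 CPM.

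**Figure D3:**
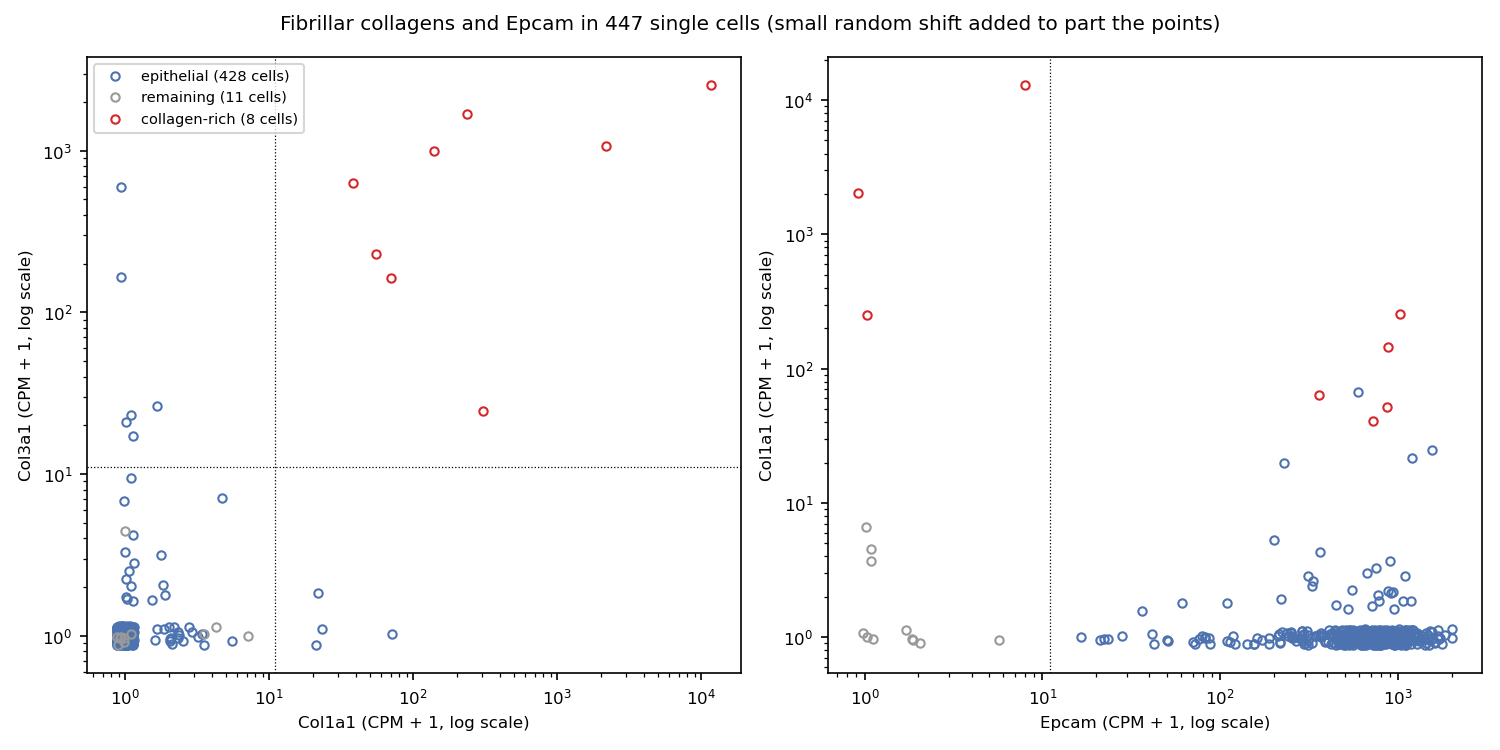
Left, Col3a1 against Col1a1 in all 447 single cells; right, Col1a1 against Epcam (CPM with 1 added, log scales, points shifted slightly at random); dotted lines mark 10 CPM. The 8 collagen-rich cells (red) stand in the upper right of the left panel and fall into 5 with Epcam and 3 with little or none in the right panel.

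The 8 cells differed in their other markers. The 5 cells of ventral Pdx1+ set 2 held Col1a1 at 131, 69.4, 36.7, 278 and 51.5 CPM and Col3a1 at 983, 158, 687, 26.1 and 246 CPM. In the same order they held Epcam at 832, 366, 719, 903 and 987 CPM, with 8 to 10 of 10 epithelial markers at 10 CPM or more. So these 5 cells carried both epithelial and fibrillar transcripts. Their mesenchymal markers were mixed. The platelet-derived growth factor receptor Pdgfra read 0 to 9.79 CPM, and Postn read 30.0, 97.4, 0, 3.07 and 0 CPM in the same order. Vim read 45.3 to 385 CPM. The 14 mesenchyme markers summed to 698 to 1417 CPM, beside a median of 703 CPM in epithelial cells. Hepatoblast markers summed to 457, 8390, 316, 2724 and 2402 CPM in these cells, in the same order, against a median of 1604 CPM in epithelial cells. No doublet caller was run, and whether a well held more than 1 cell was not tested.

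The other 3 cells had little or no Epcam, at 0, 6.44 and 0 CPM. The cell of ventral Pdx1+ set 3 held Col3a1 at 1774 CPM, Col1a2 at 1358 CPM and Col1a1 at 259 CPM, with no Col4a1, Col18a1 or Epcam read. The first cell of Pdx1-low set 6 held Col1a1 at 12685 CPM and Col3a1 at 2504 CPM, with the matricellular protein gene Postn at 620 CPM and Pdgfra at 217 CPM. The second held Col1a1 at 1951 CPM and Col3a1 at 1109 CPM, with Col18a1 at 999 CPM and no Pdgfra or Postn read. Cardiac markers summed to 354 and 338 CPM in these 2 cells of Pdx1-low set 6 (median of epithelial cells 4.29 CPM), with Kdr, a vascular growth factor receptor, at 42.2 and 65.2 CPM. Their mesenchyme markers at 10 CPM or more numbered 10, 12 and 7 of 14, against 3 to 6 in the first 5 cells. Mesenchyme markers summed to a median of 1028 CPM in the 8 cells and 703 CPM in epithelial cells, and ranged up to 3172 CPM in the latter, so the sum did not separate the classes.

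Per length, mean levels of Col4a1 and Col4a2 were close in both classes, and those of the fibrillar genes were not. This is a description, since the class was drawn from Col1a1 and Col3a1. Mean Col4a1 was 42.4 RPKM in collagen-rich and 43.5 RPKM in epithelial cells, Col4a2 16.2 and 20.5 RPKM, and Col18a1 46.4 and 29.0 RPKM. The means of 8 cells rest on a few of them: 1 cell held Col4a1 at 1175 CPM, and the medians were 118 CPM in collagen-rich and 207 CPM in epithelial cells for Col4a1, 50.8 and 97.1 CPM for Col4a2, and 154 and 155 CPM for Col18a1. Col4a1 read 12.5 to 1175 CPM in the collagen-rich cells of ventral Pdx1+ set 2, which held Epcam. It read 0, 139 and 0.805 CPM in those with little or no Epcam. Col2a1 read 1.93 to 263 CPM in the former and 0, 0 and 41.9 CPM in the latter. The class means of both genes thus came mostly from cells with Epcam. Col4a6 averaged 2.73 against 0.74 RPKM, with 1 of the 8 cells at 10 CPM or more. Col1a2 was at 97.9 against 7.48 RPKM, Col5a2 at 28.6 against 0.64 RPKM and Col5a1 at 10.2 against 1.67 RPKM. The type VI genes Col6a1 (12.0 against 0.88 RPKM) and Col6a2 (15.8 against 1.38 RPKM) sided with the fibrillar class, while Col2a1 (22.9 and 22.2 RPKM) and Col27a1 (2.34 and 4.03 RPKM) did not.

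**Figure D4:**
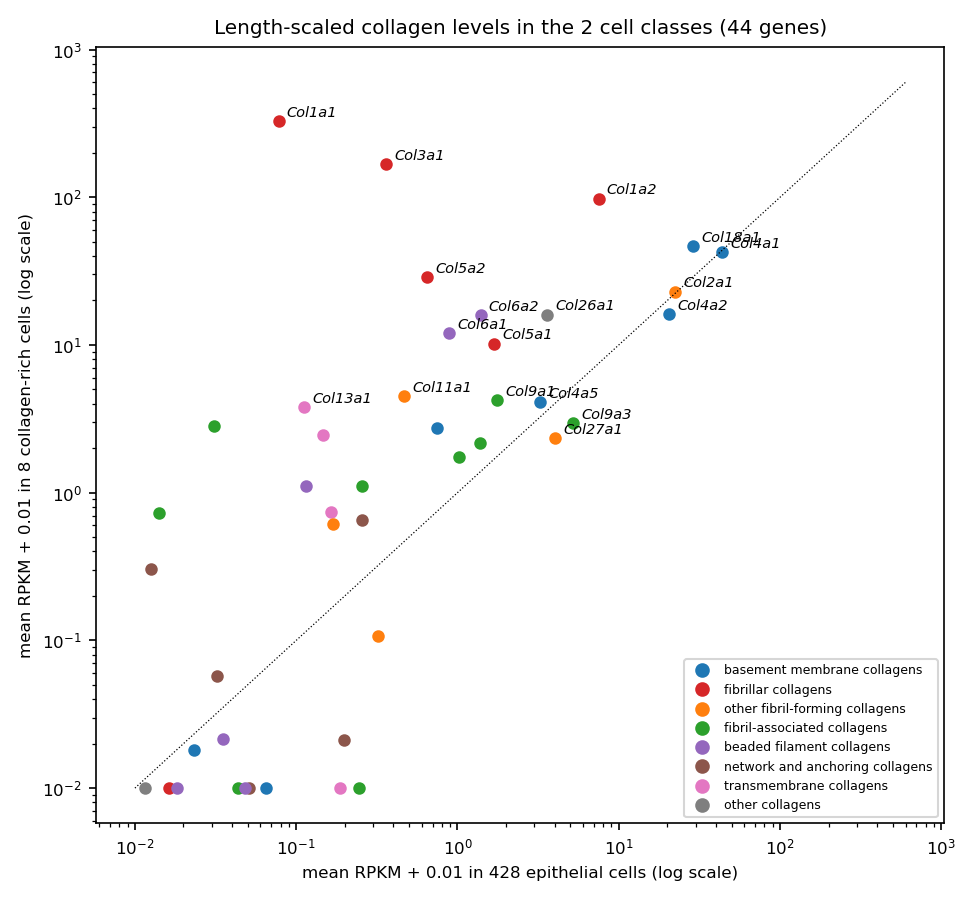
Mean RPKM of each of the 44 collagens in the 8 collagen-rich cells against the 428 epithelial cells (log scales, 0.01 added), with the line of equal levels. The means of Col4a1 and Col4a2 lie near the line at the high end, Col18a1 lies somewhat above it, and Col1a1, Col3a1, Col5a2 and Col1a2 lie well above it.

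The share of their groups' fibrillar reads that these few cells held differed between genes. They carried 98.8% of the summed Col1a1 CPM and 95.4% of the Col3a1 CPM of ventral Pdx1+ cells, and 99.97% and 99.9% of those of ventral Pdx1-low cells. For these 2 genes, which define the class, a high share follows from the rule. For Col1a2 the shares were 58.3% and 75.0%, and for Col5a2 36.9% and 99.9%. For Col5a1 most reads lay in the other cells (26.4% and 19.04% in the collagen-rich ones), as they did for Col4a1 (14.6% and 1.00%).

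Col1a2 without Col1a1 was common in some epithelial groups. In dorsal Pdx1-low epithelial cells, whose sets hold 25121 to 54012 CPM of early endocrine markers, the median Col1a2 level was 88.1 CPM, and 82.1% of 39 cells had 10 CPM or more, while 1 of them had 10 CPM of Col1a1. The medians were 44.7 CPM in E9.5 dorsal, 18.1 CPM in E9.5 ventral and 6.20 CPM in E10.5 dorsal Pdx1+ epithelial cells, and 0 in every other group. Liver bud epithelial cells had the lowest share at 10 CPM, 5.88% of 17. Across 447 cells, which differ in depth and sort, the Spearman correlation of Col1a1 with Col1a2 was 0.0979. That of Col4a1 with Col4a2 was 0.752 (0.746 over epithelial cells, and -0.0668 to 0.821 within groups). For the other head-to-head pair, Col4a5 with Col4a6, it was 0.198 (0.185 over epithelial cells, and -0.357 to 0.362 within groups). These correlations are descriptions across cells.

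The level of Col4a1 in epithelial cells had an order over the groups. Its median was highest in E9.5 dorsal Pdx1+ cells (498.2 CPM) and in ventral Pdx1-low Liv2+ and Liv2- cells (494.4 and 448.7 CPM). Ventral Pdx1-low cells had 363.6 CPM, dorsal Pdx1-low 242.1, E9.5 ventral 183.9, ventral Pdx1+ 183.3, dorsal Pdx1-high 143.7, dorsal Pdx1+ 115.0, ventral Pdx1-high 89.2 and liver bud cells 34.4 CPM. Cells spread widely, from 29.4 to 1074 CPM within ventral Pdx1-low cells alone, so neighbours in this order overlap. Col18a1 had a narrower order, from 54.1 CPM in dorsal Pdx1-low to 272.8 CPM in E9.5 ventral epithelial cells, and its liver bud median was 78.1 CPM.

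**Figure D5:**
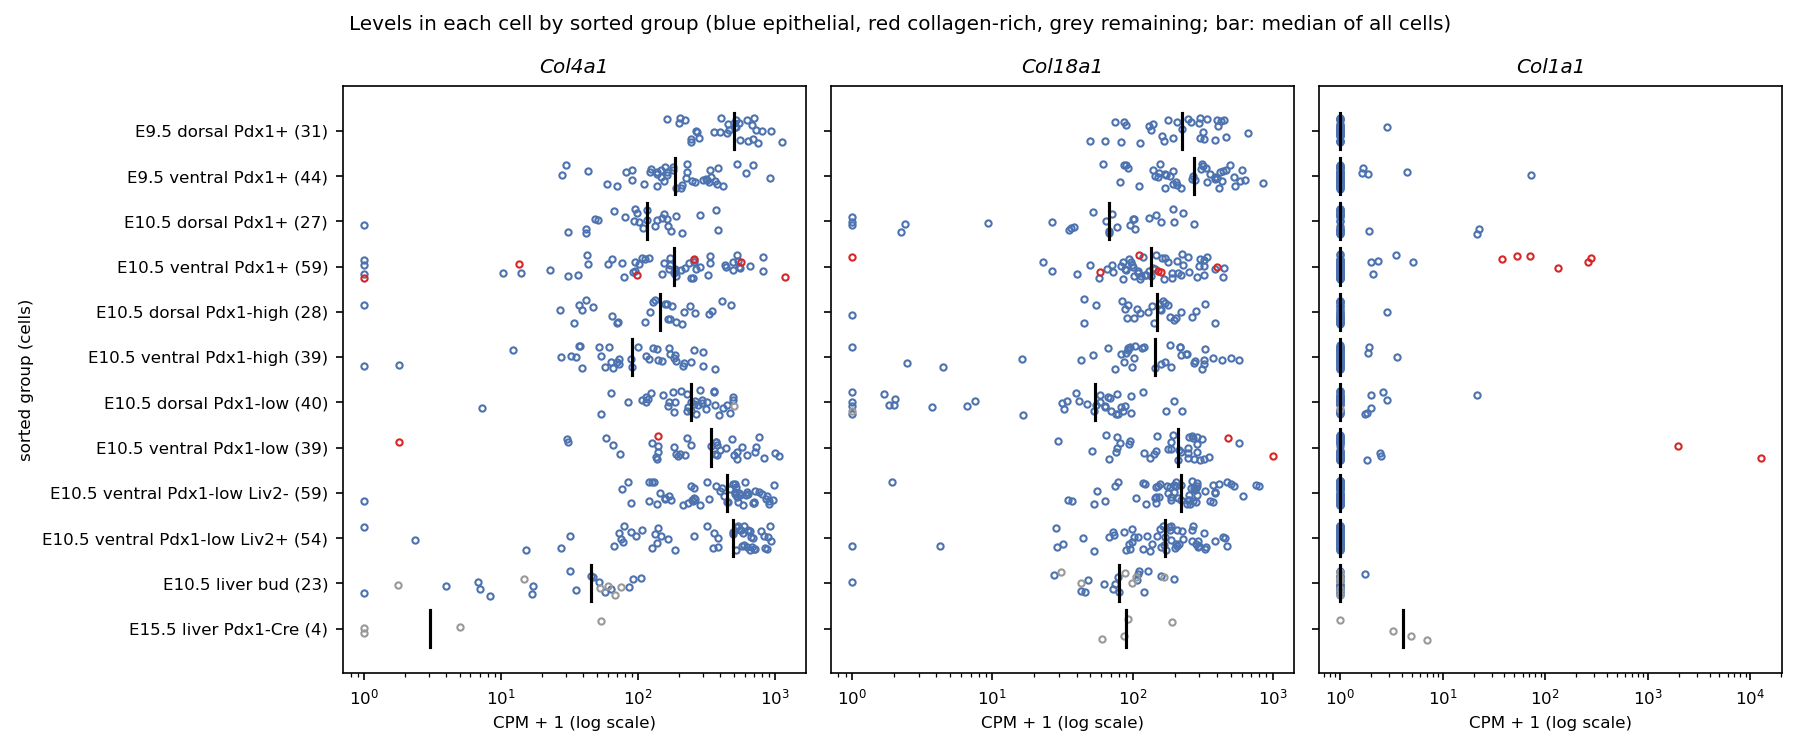
Col4a1, Col18a1 and Col1a1 in each single cell by sorted group (CPM with 1 added, log scale). Points are cells (blue epithelial, red collagen-rich, grey remaining) and bars are medians of all cells of a group. Col4a1 is lower in liver bud cells than in the pancreatic groups, and the Col1a1 median is 0 in each group but the 4 E15.5 liver cells.

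Sets of cells were then compared as samples. In ventral cells, the Pdx1-high gate held less type IV collagen than the Pdx1-low gate. Col4a1 was at 56.1, 77.3, 156.9, 135.2 and 81.7 CPM in the 5 Pdx1-high sets and at 265.8, 257.4, 530.9, 579.1 and 258.2 CPM in the 5 Pdx1-low sets (-1.90 ± 0.36, adjusted p = 0.0041). Col4a2 was at 24.2, 26.8, 63.7, 21.5 and 28.9 CPM against 161.7, 184.4, 275.6, 172.8 and 112.1 CPM (-2.45 ± 0.35, adjusted p = 0.0001). The gates did not overlap for either gene. They were the only 2 of 34 collagens called, beside 0.964% of all genes in either direction and 0.35% called lower. Col18a1, at 159 and 210 CPM, was not called (-0.41 ± 0.43, adjusted p = 0.87), so within the basement membrane class only the Col4a1 and Col4a2 pair was called.

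In dorsal cells the same gates gave 6 collagens higher and 7 lower in Pdx1-high sets (13% and 11.1% of all genes, 24.1% in all). Col4a2 was lower (57.5 against 114 CPM, -0.99 ± 0.32, adjusted p = 0.025), and Col4a1 was not called (160 against 225 CPM, -0.50 ± 0.34, adjusted p = 0.29). Col18a1 was higher (129 against 52.1 CPM, 1.30 ± 0.42, adjusted p = 0.022). Col27a1 (31.7 against 0.808 CPM), Col2a1 (77.2 against 6.35 CPM) and Col4a5 (47.5 against 5.11 CPM) were higher too. Col1a2 was lower at 0, 3.05, 10.4, 13.6 and 50.9 CPM against 55.4 to 226.3 CPM in the 6 Pdx1-low sets (-2.95 ± 1.03, adjusted p = 0.037), with no overlap. Col22a1 was lower at 0.814 against 10.2 CPM (-3.63). The call of Col4a2 ended in 4 of 11 fits with a set left out (Pdx1-high 1, 2 or 5 or Pdx1-low 6, adjusted p up to 0.0731), that of Col1a2 in 5 (up to 0.0839) and that of Col18a1 without Pdx1-high set 1 (0.0629). Where a group had almost no reads, bounds from summed reads were used. These cover counting error only, since reads without molecular identifiers are not independent molecules. Col5a2 had 278 against 1 read (ratio 504, interval 89.8 to 19992), with Pdx1-high set 4 at 40.1 CPM and the next set at 8.70 CPM, Col4a6 was at least 72.6-fold higher, and Col8a2, Col6a3 and Col6a1 were at least 94.1-, 73.1- and 25.5-fold lower in Pdx1-high sets, with a floor of 3 reads over a group. Col17a1 had 1 read against 225 (124-fold lower, interval 22.03 to 4920). The calls of Col6a1, Col17a1 and Col6a3 ended in 7, 7 and 3 of 11 fits with a set left out (adjusted p up to 0.0715, 0.0842 and 0.0547). With sets of 5 or more cells the calls of Col18a1, Col4a5, Col5a2, Col17a1 and Col6a3 ended. A block on the set number ended those of Col4a6, Col6a1 and Col17a1, and DESeq2 that of Col6a3. Those of Col18a1 and Col1a2 ended with no filter. Over all 447 cells, 45 had 10 CPM or more of Col6a1, 13 of Col6a3, 11 of Col17a1 and 9 of Col8a2. The Pdx1-low dorsal sets are those with the endocrine marker sums given above, against 28.9 to 284 CPM in dorsal Pdx1-high sets.

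Ventral and dorsal Pdx1-low sets differed in 13 of 34 collagens, 8 higher and 5 lower in ventral sets (13.9% and 11.1% of all genes, 24.9% in all; median 0.71 beside 0 over all genes). Col18a1 was at 203.0, 186.8, 172.0, 223.0 and 267.0 CPM ventrally and 47.7, 12.1, 35.8, 117.9, 40.6 and 58.6 CPM dorsally (2.01 ± 0.42, adjusted p = 0.00065). Col2a1 was at 158 against 6.35 CPM (4.63 ± 0.60, adjusted p = 1.3e-06) and Col27a1 at 38.9 against 0.808 CPM (5.69 ± 0.73, adjusted p = 1.1e-06). The sides did not overlap for these 3 genes. Early endocrine markers differed alongside, with 7 of 8 lower ventrally (7.83 to 152 against 25121 to 54012 CPM summed). Their part in the collagen difference was not tested.

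The calls of Col1a1, Col3a1 and Col5a2 in this comparison rested on 1 set, and they also ended with a block on the set number. Col1a1 was at 0 CPM in 4 of 5 ventral sets and at 1258.3 CPM in set 6, which holds the 2 collagen-rich cells, and its dorsal sets read 0 to 4.60 CPM. It was called higher ventrally (8.27 ± 2.22, adjusted p = 0.0075), but its log2 difference turned to -6.38 without set 6 (adjusted p = 0.0858) and to -3.09 without the 8 cells (adjusted p = 0.208). The 8 cells were picked by Col1a1 and Col3a1, so a fall of Col1a1 without them follows from the rule. Col3a1 had 4880 ventral reads against 1 dorsal read, and 304.6 CPM in set 6 against 0 in the other 4 sets. Without set 6 its value was -1.49 (adjusted p = 0.763). Col5a2 had 1511 reads against 1 (94.3 CPM in set 6, 0 in the others) and turned to -1.92 (adjusted p = 0.666). Col5a1 (40.0 against 1.71 CPM, 4.60 ± 1.30, adjusted p = 0.0092) was higher, and its sides did not overlap. Its call held in all 17 alternative fits.

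The remaining calls in Pdx1-low sets were Col4a6 (at least 89.0-fold higher ventrally) and 5 genes lower ventrally: Col9a3 (6.29 against 47.4 CPM, -2.91, adjusted p = 0.043), Col8a2 (0.250 against 13.9 CPM), Col17a1 (at least 66.6-fold), Col20a1 (at least 58.0-fold) and Col6a5 (at least 30.8-fold). The Col9a3 call ended in 7 of 11 fits with a set left out (adjusted p up to 0.0835), with no filter and with a block on the set number. Those of Col17a1 and Col6a5 ended with that block. The Col6a5 call also ended with DESeq2, and the Col8a2 call with sets of 5 or more cells. Over all 447 cells, 14 had 10 CPM or more of Col20a1, 11 of Col17a1, 9 of Col8a2 and 3 of Col6a5, so these folds rest on few cells. Col4a1 (378 against 225 CPM, adjusted p = 0.096), Col4a2 (181 against 114 CPM, adjusted p = 0.12) and Col1a2 (66.8 against 120 CPM, adjusted p = 0.56) were not called. Of 12 mesenchyme markers tested, 8 were higher ventrally. Among partners, the heparan sulphate proteoglycan Agrn was at 188 against 20.9 CPM (3.18), Sparc at 480 against 73.9 CPM (2.70) and Mmp14 at 194 against 2.64 CPM (6.30), while Ddr1 was lower by 2.41.

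Liver bud sets had less type IV collagen than the ventral Pdx1-low Liv2+ sets. Col4a1 was at 63.1 and 26.1 CPM in the 2 liver bud sets and 433.0 and 404.1 CPM in the 2 Liv2+ sets (-3.23 ± 0.60, adjusted p = 0.0031), and Col4a2 at 13.7 and 13.1 CPM against 135.9 and 134.9 CPM (-3.34 ± 0.57, adjusted p = 0.0012). Col2a1 was at 0.326 against 116 CPM (-8.43 ± 1.26, adjusted p = 0.00017). These were the 3 collagens called of 34, all lower in liver bud sets, beside 0.585% of all genes in either direction and 0.568% called lower. Liver bud sets lay below all Liv2+ sets for each of the 3 genes. With 2 sets a group the calls were fragile: that of Col4a1 ended without liver bud set 2 (adjusted p = 0.32) and that of Col4a2 without either liver bud set (up to 0.106), while that of Col2a1 held with each set left out. Col18a1, at 98.5 against 177 CPM, was not called (-0.85 ± 0.69, adjusted p = 0.91).

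In 5 comparisons of sets edgeR called no collagen of 34. Ventral against dorsal Pdx1-high sets (0.0172% of all genes called) had 3 collagens at an unadjusted p under 0.05 and 0 called by DESeq2. Ventral against dorsal Pdx1+ sets (0.402%) had 4 and 1. The E9.5 sides (0% of all genes called) had 3 and 1, Liv2+ against Liv2- (0%) had 1 and 1, and E10.5 against E9.5 Pdx1+ sets (0.138%) had 5 and 2. Col4a1 was at 433.0 and 404.1 CPM in Liv2+ and 425.6 and 418.9 CPM in Liv2- sets, a log2 difference of -0.01 ± 0.55. In E10.5 ventral Pdx1+ sets Col3a1 was at 0, 120.0 and 478.8 CPM and Col1a1 at 0.0477, 22.9 and 69.8 CPM. Only the sets holding collagen-rich cells were high, which is largely fixed by the rule, since these genes picked those cells.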

How the data were processed

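Per the labels' protocols, cells were sorted, and libraries were made by Smart-seq2 for single cells and with poly(A) selection in bulk. Reads were aligned with TopHat2 2.1.0 and Bowtie2 and counted with HTSeq 0.6.0 on GRCm38, per the submitters' processing notes; the sources used here do not name the annotation release. The values used, as deposited, are raw read counts per gene with a gene length; 92 spike-ins were left out. The members and the gene lists were chosen with earlier results of these data known. Samples were grouped by their labels; 25 E9.5 ventral cells carry a human stem-cell culture protocol and were kept as labelled. CPM and RPKM used TMM-scaled totals in bulk libraries and sets, and plain totals in single cells.

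Tests used edgeR 4.0.16 (R 4.3.3; filterByExpr, TMM scaling, glmQLFit with robust estimation, Benjamini-Hochberg adjustment), with all 16 bulk libraries or all 37 cell sets in 1 fit and no covariate. Sets under 3 cells and the E15.5 liver set were left out. A script checked the tests on simulated data. Alternatives were RLE scaling, DESeq2 1.42.0, a replicate block, no low-count filter, larger sets and leaving out each library or set. Named genes were Col4a1, Col4a2, Col18a1, Col1a1, Col1a2, Col3a1, Col5a1 and Col5a2, up to 10 called members per direction by fold, up to 3 called genes per partner list by level, and members that never passed the filter.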

Additional observations from a re-analysis of the deposited data

Results flagged for a closer look

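In groups of 5 or 6 cell sets, the 8 collagens named throughout were examined for a set far from the others of its group by Dixon's 95% criterion. Of 32 pairs of gene and group, 16 met it. The criterion assumes normally distributed values, for which chance gives about 1 in 20, and the CPM were not checked for this. In 8 of the 16 all other sets were at 0 CPM, where any lone set with a read meets the criterion. That rate does not apply there and may not hold for the rest. In ventral Pdx1-low cells set 6, which holds 2 collagen-rich cells, was far above the rest for Col1a1 (1258.3 CPM), Col3a1 (304.6 CPM), Col1a2 (229 CPM) and Col5a2 (94.3 CPM). Collagen-rich cells were picked by Col1a1 and Col3a1, so high values of these genes in that set follow from the rule. In dorsal Pdx1-low cells Col1a2 stood out in set 6 (226 CPM), Col5a1 in set 4 (7.91 CPM), Col1a1 in set 5 (4.60 CPM), Col5a2 in set 5 (0.209 CPM) and Col3a1 in set 6 (0.0421 CPM). In dorsal Pdx1-high cells Col1a2 stood out in set 6 (50.9 CPM), Col5a2 in set 4 (40.1 CPM), Col3a1 in set 2 (1.02 CPM) and Col1a1 in set 2 (0.407 CPM). In ventral Pdx1-high cells Col4a2 stood out in set 4 (63.7 CPM), Col5a2 in set 1 (21.5 CPM) and Col3a1 in set 2 (0.370 CPM). Values under 1 CPM rest on a few reads in groups otherwise at or near 0.

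The ventral minus dorsal difference at E10.5 in bulk differed from the mean of the later sorts, by the test of that difference in edgeR, for 11 collagens. On the log2 scale it was higher for Col1a1 (4.50), Col5a1 (2.41), Col4a6 (1.82), Col2a1 (0.86) and Col4a5 (0.85). It was lower for Col6a5 (-2.87), Col9a3 (-2.53), Col17a1 (-2.19), Col9a2 (-2.08), Col11a2 (-1.20) and Col9a1 (-0.69).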

How the results depend on the processing

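Counts of collagens called moved by over 1.5 times as follows. For ventral against dorsal bulk cells at E10.5 the count of 13 became 21 with DESeq2 and 25 with no filter on low counts, and 25 with only the E10.5 libraries, a setting chosen after seeing the data. With no filter the counts in Ngn3-high, Ngn3-low and E17.5 sides went from 0 to 6, 10 and 4, and the test of the E10.5 side difference from 11 to 25. DESeq2 called 1 in the Ngn3-low sides, the Pdx1+ sides, the E9.5 sides and the Liv2 contrast, 2 in E10.5 against E9.5 (each 0 before), 6 in place of 2 between ventral Pdx1 gates and 6 in place of 3 for the liver bud. Sets of 5 or more cells gave 8 in place of 13 between dorsal Pdx1 gates. Leaving out 1 library or set gave 8 to 11 at E10.5 in bulk, 7 to 12 for the side difference, 8 to 14 between dorsal gates and 1 to 3 for the liver bud. In Pdx1-low sides Col1a1 turned to -6.38 without ventral Pdx1-low set 6 and to -3.09 without the 8 cells. Col3a1 turned to -1.49 without that set, and Col5a2 to -1.92 without it and to -0.28 without the 8 cells. Set 6 holds 2 of the 8 cells, which were picked by Col1a1 and Col3a1, so a fall of Col1a1 without them follows from the rule.

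A replicate block on the set number gave 8 in place of 13 for Pdx1-low sides. The bulk block moved no count by over 1.5 times (19 in place of 13 at E10.5). In bulk, deviations from group means correlated at -0.0686 to 0.482 between same-number libraries (median 0.118, over 0.1 in 32 of 56 pairs). With 2 libraries a group, different-number pairs mirror this (median -0.118, 0 of 56 over 0.1). Same-number bulk libraries thus tended to deviate together, and the main fit has no term for this. In sets, 5 of 131 same-number pairs were over 0.1 (median 0.0048). The labels do not say what the numbers stand for. The causes of the moves in counts were not tested. In sets, levels of 1 or a few reads limit what can be compared.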

Other observations

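Genes that fold and ship collagen were counted beside the chains. From Ngn3-high cells to E17.5 beta cells, 9 of 19 folding and modification genes were higher and 4 lower (32% and 29.9% of all genes; median 0.11 beside 0.011). P4hb, the beta subunit of prolyl 4-hydroxylase and a disulphide isomerase, rose from 761 to 1746 CPM (1.20 on the log2 scale). Sec24d, a coat protein of procollagen carriers, rose from 89.9 to 406 CPM (2.18), and Mia3 from 265 to 650 CPM (1.29). Of 15 basement membrane partners 5 were higher and 6 lower, shares near those of all genes: Lama5 went from 555 to 107 CPM (-2.37), Lamc1 from 380 to 230 CPM (-0.72) and Lamb1 from 212 to 121 CPM (-0.80). The collagen receptor Ddr2 rose from 2.096 to 17.97 CPM (3.19) and the oxidase Loxl2 from 14.7 to 72.5 CPM (2.31), while Pxdn, which crosslinks type IV collagen, fell by 1.13 on the log2 scale. From E10.5 to Ngn3-low cells 12 of 15 basement membrane partners were higher and none lower (33% and 34.8% of all genes; median 1.44 beside -0.016).

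The share of single cells with a collagen varied by group for some genes of low level. Col26a1 was at 10 CPM or more in 50.0% of 28 dorsal and 48.7% of 39 ventral Pdx1-high cells, against 7 of 40 dorsal and 1 of 39 ventral Pdx1-low cells; the tests on sets did not call it between the gates (adjusted p = 0.14 dorsally and 0.23 ventrally). Col9a3 had medians of 28.4, 32.2 and 40.7 CPM in dorsal Pdx1+, Pdx1-high and Pdx1-low cells and 0 in each other group. Col22a1 had a read in 303 of 447 cells but 10 CPM in 90. Col4a6 was at 10 CPM in 36.4% of 44 E9.5 ventral and 19.4% of 31 E9.5 dorsal cells. Col10a1 and Col28a1 reached 10 CPM in 0 cells and had reads in 4 and 2. A rule with Col1a1 and Col1a2 picked 9 cells, 7 of them among the 8 collagen-rich cells.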
